A study of Mus musculus with 14 samples.

Results

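The genes of the ionotropic receptors for glutamate, GABA and glycine were followed in RNA from sorted mouse retinal cells. They were taken as a list of 33 subunit genes, with the counts of all RefSeq records of a gene added together, out of 26157 genes named in the tables. The list held 4 AMPA, 5 kainate and 6 NMDA receptor subunits, 10 GABA-A subunits, the 3 rho subunits and 5 glycine receptor subunits. Wild-type CD1 mice received plasmid (1 µg/µl) into the eye by electroporation at P0, and fluorescent cells were sorted at P21. The control cells carried the empty vector pSilencer-CAG-Venus, and the shBCOR cells carried pSilencer-shBcor, a short hairpin construct against Bcor. Bcor encodes a transcriptional corepressor, and the series concerns its work with the photoreceptor factors Otx2 and Crx. Each group had 2 replicates, each a pool of several sorts of 30000 to 70000 cells, so the tests below measure the spread between pools.

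Ionotropic receptors are channels that open when a transmitter binds. AMPA, kainate and NMDA receptors are tetramers that pass cations and excite the cell, and GABA-A and glycine receptors are pentamers that pass chloride and in the mature retina mostly inhibit it. In the retina, photoreceptors and bipolar cells release glutamate. OFF bipolar and horizontal cells answer it with AMPA and kainate receptors, and amacrine and ganglion cells with AMPA and NMDA receptors. GABA and glycine come mainly from amacrine cells, and the rho subunits form a slow GABA receptor best known from the axon terminals of bipolar cells.

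Total counts were 5107174 and 4973402 for the control replicates, and 3173927 and 4093380 for shBCOR. The cells carried the RNA of photoreceptors, with counts for 12 of 13 rod markers. Bcor had 20 and 8 counts in control cells, then 0 and 13 in shBCOR cells (log2 fold change −0.63 ± 2.40 (SE), adjusted p = 0.991, edgeR), so its lowering was not detectable here. Levels are given in CPM, the count scaled to the size of the library with the TMM method, and are compared between libraries for a gene and never between genes, since transcript lengths were not used.

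Receptor genes with counts and those without differed in their number of RefSeq records. All 13 receptor genes with a single record had counts, and 5 of the 20 with several records did. Over all genes these shares were 46.4% of 17346 genes and 36.2% of 8811 genes. Where genes with several records had counts, they had few, with a median control level of 1.71 CPM against 17.4 CPM for genes with a single record. The same split was seen in lists of synaptic partner genes (25 of 25 with a single record, 22 of 41 with several) and of cell type markers (65 of 70 and 19 of 41). The 33 receptor genes had 94 records, of which 20 had a count. The treatment of a read lying in several records is not given in the sources used here.

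**Figure D1:**
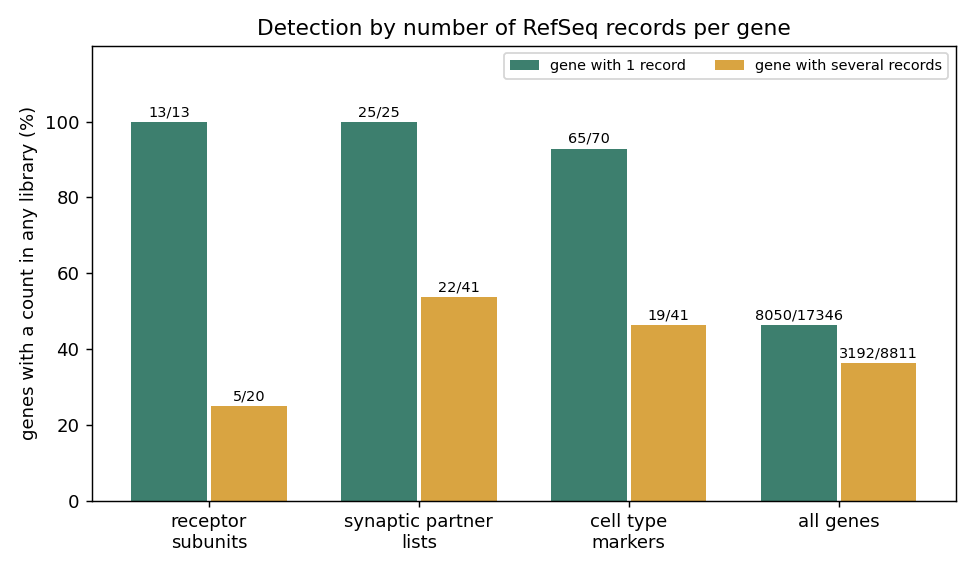
Share of genes with a count in any of the 4 libraries (y axis, percent), for genes with a single RefSeq record and genes with several, in 4 sets of genes (x axis). The numbers over the bars are genes with counts of all genes in the class. In each set the bar of genes with several records is the lower, at 25% against 100% for the receptor genes.

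In total 15 receptor genes, each with several records, were listed at 0 in all 4 libraries. They were the AMPA subunit Gria3, the kainate subunits Grik2 and Grik5, the obligatory NMDA subunit Grin1 with Grin2b and Grin3a, the GABA-A subunits Gabra3, Gabra4, Gabra5, Gabra6 and Gabrb1, and the glycine receptor subunits Glra1, Glra2, Glra3 and Glrb. No level is read from these entries, since the table does not separate a silent gene from one whose reads were not assigned. Where genes with several records did have counts, these lay mostly in 1 record. All counts of Gria2 were in NR_152149, a noncoding record among its 8, those of Grik1 were in NM_001346964 among 3, and those of Gria1 were in NM_008165 among 3. Gria4 was the exception, with counts in each of its 3 records. The values of these genes are uncertain for that reason.

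Of the 18 receptor genes with counts, 5 had counts in all 4 libraries, namely Grik1, Grik3, Gabra2, Gabrr1 and Gabrr2. A further 5 had counts in 3 libraries, 6 in 2 and 2 in a single library. Control cells had counts for 16 and 15 of them and shBCOR cells for 10 and 8, where over all genes the numbers were 9116 and 9283 against 7881 and 8289. The shBCOR library with fewer receptor genes was the deeper of its group. For 5 of the 18, both shBCOR libraries were at 0 while a control had counts; over all genes with counts in a control this share was 18.7%. The opposite pattern was found for 0 receptor genes, where 8.73% of all genes with counts in a shBCOR library had it.

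**Figure D2:**
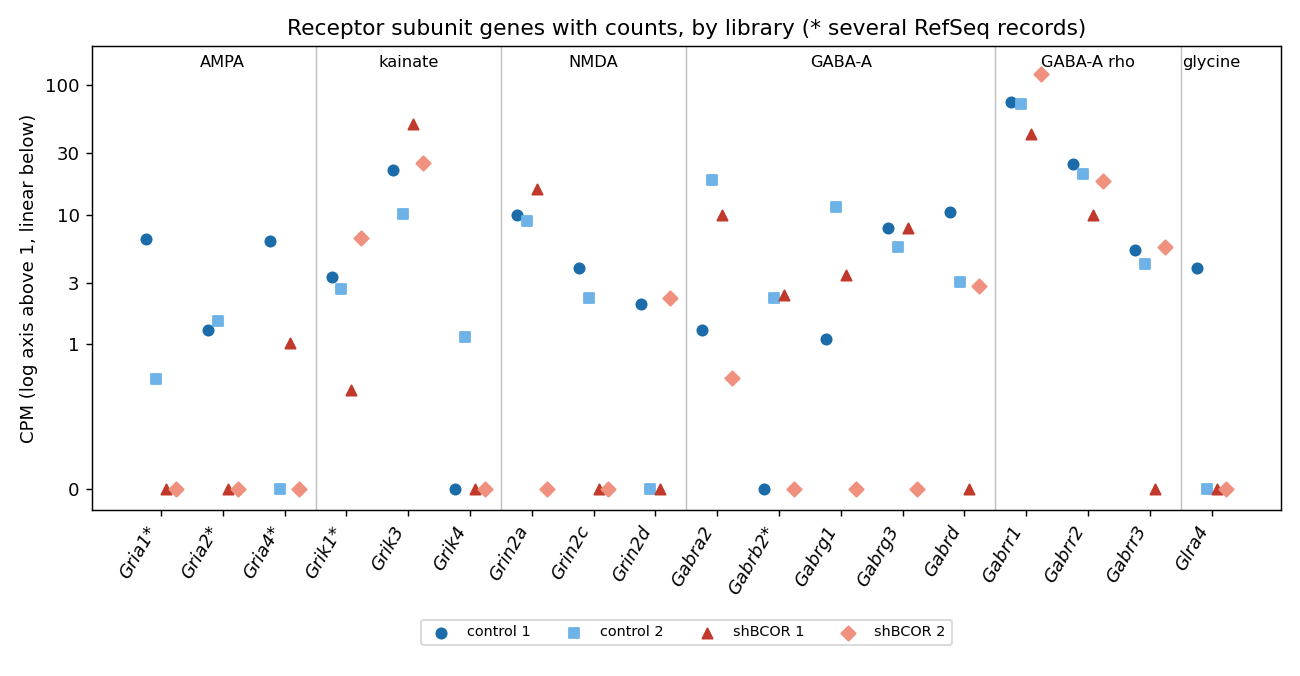
Level of the 18 receptor genes with counts (x axis, grouped by family, a star marks genes with several records) in each of the 4 libraries (y axis, CPM, logarithmic above 1 and linear below). Gabrr1, Gabrr2 and Grik3 have counts in every library, and most other genes are at 0 in at least 1 library.

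None of the 11 receptor genes with enough counts for the test was called different between shBCOR and control cells. With edgeR's quasi-likelihood test and adjustment over the 7775 genes tested, 7 genes passed at an adjusted p under 0.05, which is 0.09% of those tested, and 0 of them were receptor genes. By direction, 0.0386% of all genes passed as higher and 0.0514% as lower. The smallest adjusted p among the receptor genes was 0.563. At an unadjusted p under 0.05 there were also 0 receptor genes, against 9.3% of all genes tested. DESeq2, a count model with another scaling and filter, called 4.67% of 8415 genes. It called 0 of the 13 receptor genes it adjusted, with a smallest adjusted p of 0.198. Gria1 and Grik3 had an unadjusted p under 0.05 in DESeq2, where the share of all genes at that threshold was not computed. Gria1, with 3 records, was at 0 in both shBCOR libraries. The median log2 fold change of the 11 tested was −0.75, with 3 positive and 8 negative, against −0.01 over all genes tested, with 3815 positive and 3960 negative. Over the 10 of these genes that stayed in the test whichever library was left out, the median was −0.71, and it ranged from −0.83 to −0.11 (without shBCOR replicate 2 and control replicate 2) when 1 library was left out. Only 10 of the 13 genes with a single record passed the filter on low counts. A gene that passes through its counts in a single group is bound to look different. Grin2c, one of the 8 negative, passed through the controls alone.

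**Figure D3:**
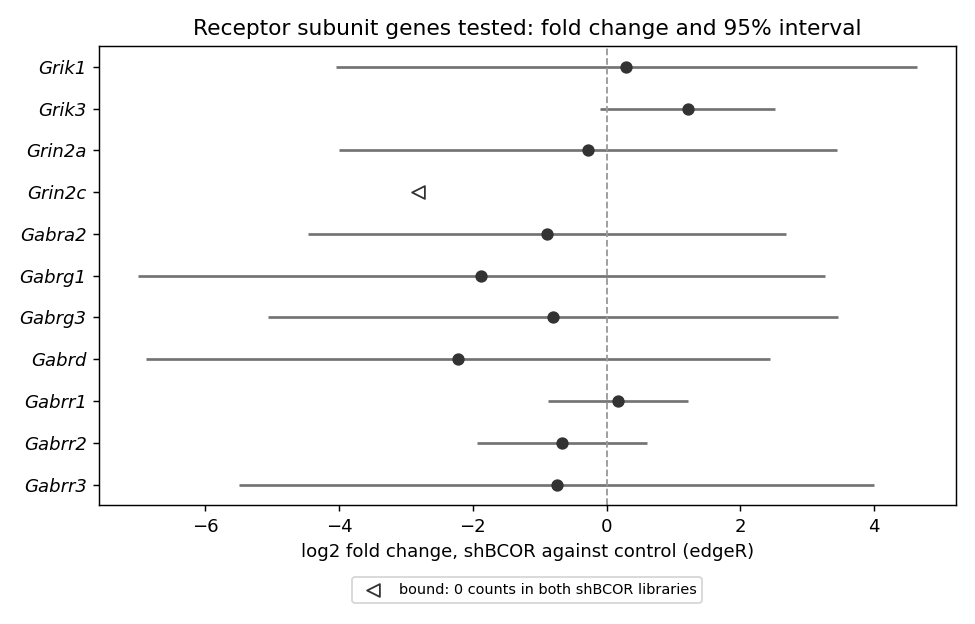
Log2 fold change of shBCOR against control (x axis) for the 11 receptor genes tested (y axis). Points with lines are edgeR estimates with their 95% intervals. The open triangle for Grin2c sets its pooled control level against a limit of 3 counts over both shBCOR libraries. It leaves out the spread between libraries, and the edgeR interval of Grin2c, not drawn, was −14.8 to 1.30. Every interval includes 0, and those of Grik3, Gabrr1 and Gabrr2 are the narrowest.

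The rho subunits, all with a single record, were the family with the highest summed counts. Gabrr1 had 400 and 379 counts in control cells, then 123 and 475 in shBCOR cells, or 74.0 and 71.8 CPM against 42.2 and 121 CPM. The shBCOR libraries thus lay on either side of the controls, which were close to each other, and further apart than counting error alone gives (95% Poisson intervals of 102 to 147 and 433 to 520 counts). The groups differed by 0.17 ± 0.45 in log2 Gabrr1 level (SE, n = 2 per group), with a 95% interval of −0.88 to 1.21 and an adjusted p of 0.983 in edgeR. It became −0.80 without shBCOR replicate 2 and 0.73 without shBCOR replicate 1.

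Gabrr2, which forms receptors with rho1, had 24.4 and 20.5 CPM in the controls and 9.94 and 18.1 CPM in the shBCOR libraries, from 132, 108, 29 and 71 counts. Both shBCOR libraries lay below both controls, as they did for 23.2% of all genes tested. Its difference of −0.67 ± 0.55 on the log2 scale (SE, n = 2 per group) was smaller than the spread between libraries could separate from 0 (95% interval −1.94 to 0.60, adjusted p = 0.802, edgeR). Gabrr3 had 29 and 22 counts in control cells, then 0 and 22 in shBCOR cells, a difference of −0.75 ± 2.04 on the log2 scale (adjusted p = 0.983, edgeR). All 3 rho genes had their lowest level in shBCOR replicate 1. Bipolar cell markers, summed over 19 genes, were also lowest there, at 1351 CPM against 2051 CPM in shBCOR replicate 2 and 2626 and 2448 CPM in the controls. This was not particular to bipolar cells. Amacrine and Müller glia markers were lowest there too, the amacrine markers by little (35.0 against 37.0 CPM in shBCOR replicate 2). Ganglion and horizontal cell markers were lowest in shBCOR replicate 2, and rod and cone markers in a control. Gabrr1 and Gabrr3 lay above both controls in shBCOR replicate 2, while Gabrr2 and the summed bipolar markers lay below both. In bulk RNA fewer cells of a type and less RNA per cell cannot be told apart, and the part of the bipolar share in these values was not tested.

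Gabrr1 and Gabrr2 lie near each other on chromosome 4, on the same strand. Their upstream regions are shown with that of Grik3, as the 3 receptor genes with the most counts, because the series concerns partners of Otx2 and Crx, which bind the core TAATCC. They are the 250 bases before a RefSeq start (GRCm38.p6, plus strand): chr4:33132306-33132555 for Gabrr1, chr4:33062862-33063111 for Gabrr2 and chr4:125490446-125490695 for Grik3. Capitals mark the core on either strand.
Gabrr1 upstream region: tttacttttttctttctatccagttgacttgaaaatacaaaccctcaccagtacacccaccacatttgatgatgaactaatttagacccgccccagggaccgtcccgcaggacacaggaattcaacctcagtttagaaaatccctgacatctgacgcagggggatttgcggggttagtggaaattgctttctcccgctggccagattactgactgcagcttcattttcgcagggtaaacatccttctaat
Gabrr2 upstream region: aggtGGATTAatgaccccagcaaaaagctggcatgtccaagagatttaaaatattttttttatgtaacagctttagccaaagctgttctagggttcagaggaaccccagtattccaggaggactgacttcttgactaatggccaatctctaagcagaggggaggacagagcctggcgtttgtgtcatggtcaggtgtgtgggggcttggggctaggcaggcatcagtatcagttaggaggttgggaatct
Grik3 upstream region: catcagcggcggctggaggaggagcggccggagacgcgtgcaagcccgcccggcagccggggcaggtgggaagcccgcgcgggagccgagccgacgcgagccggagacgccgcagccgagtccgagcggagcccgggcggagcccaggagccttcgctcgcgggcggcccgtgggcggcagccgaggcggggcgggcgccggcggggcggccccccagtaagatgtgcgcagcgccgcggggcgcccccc
The core was found once among them, in the Gabrr2 region, on the strand opposite to the gene and 246 bases before the start. The 25 receptor genes with a region in the RefSeq promoter table had 29 regions. The core was held by 2 of these genes, Gabrr2 and Gabra2, and in Gabra2 it lay 139 bases before the start. Over all 32851 regions of this length 6.25% held it, a share of regions and not of genes. The regions differ in base content: that of Grik3 holds 42 CG dinucleotides, that of Gabrr1 holds 7 and that of Gabrr2 holds 1, against a median of 6 over all regions. These matches are descriptions of sequence and were not compared with the binding data.

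Among the kainate receptors, Grik3 had the highest counts and the largest positive difference of the receptor genes. Grik3, a subunit of low glutamate affinity, had 120 and 53 counts in control cells, then 145 and 99 in shBCOR cells. In CPM these were 22.2 and 10.0 against 49.7 and 25.2, so both shBCOR libraries lay above both controls, as for 18.6% of all genes tested. The level was 2.31-fold higher, or 1.21 ± 0.56 on the log2 scale (SE, n = 2 per group, 95% interval −0.10 to 2.52), which did not pass (adjusted p = 0.563, edgeR). Without shBCOR replicate 1 the value was 0.64, without control replicate 1 it was 1.89, and without shBCOR replicate 2 it was 1.61. The control counts lay further apart than counting error alone gives, with Poisson intervals of 99.5 to 143 and 39.7 to 69.3.

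Grik1, the kainate subunit of OFF bipolar cells, had 18 and 14 counts in control cells, then 2 and 26 in shBCOR cells. The shBCOR libraries enclosed the controls, and the log2 fold change was 0.30 ± 1.86 (adjusted p = 0.995, edgeR). Grik4 had 6 counts in control replicate 2 and 0 elsewhere. Summed over the family, kainate receptors had 25.5 and 13.8 CPM in the controls and 50.4 and 31.9 CPM in the shBCOR libraries, most of it Grik3 in each library. The exact two-sided permutation p over the 4 libraries was 0.333, the smallest they allow.

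AMPA receptor genes, none of which has a single record, were read at low levels in the controls and hardly at all in the shBCOR cells. Gria1 had 35 and 4 counts in control cells but 0 in either shBCOR library, at least 8.33-fold lower when the groups were pooled and 3 counts over both shBCOR libraries taken as the limit. The bound rests on control replicate 1: it was 1.73-fold without that library and 14.8-fold without control replicate 2. Leaving out either shBCOR library raises the limit itself, and the bound was then 4.78-fold or 3.55-fold. Gria2, the subunit that makes AMPA receptors impermeable to calcium, had 7 and 8 counts and then 0 in both, a pooled bound of 3.2-fold lower. Its bound was 1.37-fold without shBCOR replicate 2. Gria4 had 34 and 0 counts in control cells, then 3 and 0 in shBCOR cells, so its counts came almost wholly from control replicate 1. Summed AMPA receptor levels were 14.1 and 2.27 CPM in the controls and 1.03 and 0 CPM in the shBCOR libraries (exact two-sided permutation p = 0.333, the smallest possible). These sums do not overlap, but the controls differ from each other by more than control replicate 2 differs from shBCOR replicate 1. No AMPA gene passed the filter for the edgeR test, and DESeq2 gave Gria1 an adjusted p of 0.276.

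NMDA receptor genes were read through 3 genes with a single record. Grin2a, a glutamate-binding subunit of mature synapses, had 54 and 47 counts in control cells, then 46 and 0 in shBCOR cells. It was thus at least as high in shBCOR replicate 1 (15.8 CPM) as in the controls (9.99 and 8.91 CPM) and absent from the counts of shBCOR replicate 2. Its log2 fold change was −0.27 ± 1.60 (adjusted p = 0.995, edgeR), and it was called lower when shBCOR replicate 1 was left out (−8.53, adjusted p = 0.0193, edgeR), where the remaining shBCOR library has 0 counts and the size has no meaning. In that comparison 5.87% of 8938 genes were called, and 1 of 15 receptor genes (6.67%), a share near that of all genes. Such gaps were not rare in these libraries: of 1148 genes with 30 to 60 counts in shBCOR replicate 1, 4.62% had 0 in shBCOR replicate 2, and of 1142 such genes in control replicate 1, 7.44% had 0 in control replicate 2.

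Grin2c had 21 and 12 counts in control cells but 0 in either shBCOR library, a pooled bound of 7.05-fold lower, without passing the test (adjusted p = 0.597, edgeR). The bound was 3-fold without shBCOR replicate 2 and 8.86-fold without control replicate 2. Grin2c entered the test through its control counts alone. Grin2d had 11 and 0 counts in control cells, then 0 and 9 in shBCOR cells. The summed NMDA receptor level was 15.9 and 11.2 CPM in the controls and 15.8 and 2.29 CPM in the shBCOR libraries, and the groups overlapped.

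For GABA-A receptor genes the replicates of a group lay far apart. Gabra2, an alpha subunit, had 7 and 97 counts in control cells, then 29 and 3 in shBCOR cells. The Poisson intervals of its control counts were 2.81 to 14.4 and 78.7 to 118, far apart. Its neighbour on chromosome 5, the gamma subunit gene Gabrg1, had the same order of libraries, with 6 and 60 counts in control cells, then 10 and 0 in shBCOR cells. The log2 fold changes of Gabra2 and Gabrg1 were −0.89 ± 1.53 and −1.87 ± 2.20 (adjusted p = 0.966 and 0.897, edgeR), and without control replicate 2 they turned to 2.01 and 0.60. The sign of both genes therefore depended on that control library, and the sign of Gabra2 also on shBCOR replicate 2 (0.01 without it).

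Gabrg3 had 43 and 30 counts in control cells, then 23 and 0 in shBCOR cells, a difference of −0.80 ± 1.83 on the log2 scale (adjusted p = 0.978, edgeR). Gabrd, the subunit of extrasynaptic GABA-A receptors, had 57 and 16 counts in control cells, then 0 and 11 in shBCOR cells. Both shBCOR libraries lay below both controls in CPM, as for 23.2% of all genes tested, and by little for the nearest pair (2.80 against 3.03 CPM). The log2 fold change was −2.22 ± 2.00 (adjusted p = 0.837, edgeR). Leaving out control replicate 1 gave −1.09, shBCOR replicate 1 gave −1.27, and shBCOR replicate 2, whose partner has 0 counts, gave −7.96. The gene model of Gabrd overlaps that of Cfap74, which had 144 counts over the 4 libraries, and the strand setting of the counting is not given in the sources used here. Gabrb2, with 5 records, had 12 counts in control replicate 2, 7 in shBCOR replicate 1 and 0 in the others. The summed level of the 10 GABA-A genes was 20.9 and 40.7 CPM in the controls and 23.7 and 3.57 CPM in the shBCOR libraries.

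Glycine receptors were read through Glra4 alone, which had 21 counts in control replicate 1 and 0 in the other 3 libraries. Its gene model overlaps BC065397, with 250 counts over the 4 libraries. Pooled, it was at least 4.48-fold lower in the shBCOR cells, but 1 control library was also at 0, so that the groups overlap.

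The summed level of all 33 receptor genes overlapped between the groups. It was 184 and 164 CPM in the controls and 143 and 182 CPM in the shBCOR libraries, a log2 ratio of the group means of −0.10 (exact two-sided permutation p = 0.667). The ratio was 0.07 without shBCOR replicate 1. Cell type markers were summed in the same libraries, where 0 of 12 rod, 0 of 8 cone, 0 of 14 bipolar, 0 of 7 amacrine, 0 of 5 horizontal and 0 of 8 Müller glia markers tested were called, and 1 of 6 ganglion cell markers, Nefm, which was lower. The share called over all genes tested was 0.09%. For each of the 7 marker lists the summed levels of the groups did not overlap, with an exact permutation p of 0.333, the smallest 4 libraries allow. Such an order was common among single genes. The shBCOR levels were the higher for 18.6% of all genes tested and the lower for 23.2%, which are shares of genes and not of sums. Amacrine markers (10 of 15 with counts) summed to 130 and 145 CPM in the controls and 35.0 and 37.0 CPM in the shBCOR libraries. Ganglion cell markers (8 of 10 with counts, Rbpms and Slc17a6 at 0) summed to 1862 and 1797 CPM and to 691 and 367 CPM. Horizontal cell markers had 57.2 and 74.7 against 54.9 and 44.9 CPM, and Müller glia markers 5841 and 5684 against 4112 and 5091 CPM. Rod markers, summed over 13 genes of which Nrl was at 0, had a median log2 fold change of 0.31 with a positive value for all 12 tested. Over all genes tested 3815 values were positive and 3960 negative. Bipolar markers had a median of −0.75, with 14 of 14 tested negative. Negative values were also found for 6 of 6 ganglion cell, 5 of 7 amacrine, 4 of 5 horizontal and 5 of 8 Müller glia markers tested. Cone markers summed to 2745 and 2582 against 3638 and 2975 CPM, but their median log2 fold change was −0.19 with 5 of 8 negative. Much of the sum was Kcnv2 (1776 and 1741 against 2702 and 2420 CPM), while Opn1sw had 512 and 496 against 490.5 and 324 CPM. Among other cell types, counts were found for 3 of 7 astrocyte and oligodendrocyte markers, 6 of 8 of microglia, 4 of 6 of pigment epithelium and 1 of 6 of vessels, so that these lists were read in part. Their highest sums in any library were 38.7, 21.8, 19.6 and 15.6 CPM. The part of these cell types in the receptor values was not tested.

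**Figure D4:**
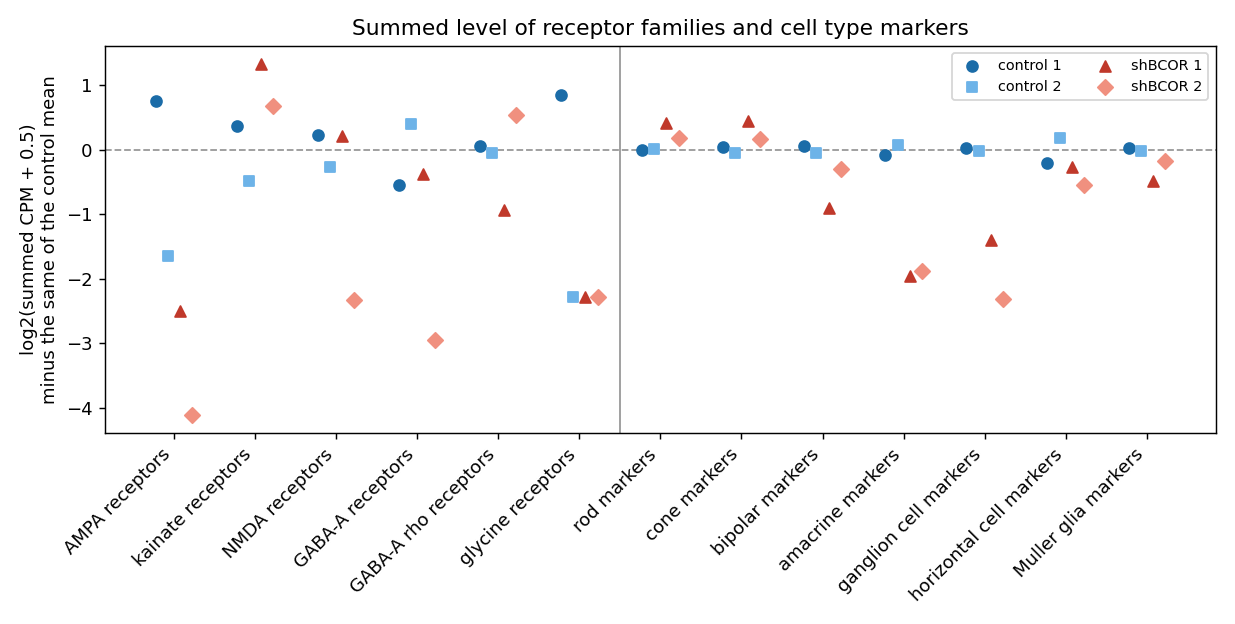
Summed level of each receptor family (left) and of 7 cell type marker lists (right) in each library, as log2(summed CPM + 0.5) minus the same value of the control mean (y axis). The controls lie closer together for the marker lists than for the AMPA and glycine receptors. Amacrine and ganglion cell markers are lower in both shBCOR libraries.

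Genes of partner proteins were read from lists in the same fit, which called 0 genes of any of the 6 lists. Of 15 AMPA and kainate auxiliary proteins, 5 could be tested, 0 passed, and the median log2 fold change was −0.57. With 8 genes the median was −3.67 in DESeq2 and −4.21 without the filter on low counts, and with 6 genes it was −2.03 without control replicate 1, −2.80 without shBCOR replicate 1 and −2.28 without shBCOR replicate 2. Cacng2 (stargazin), which carries AMPA receptors to the synapse, had 83 and 49 counts in control cells but 0 in either shBCOR library, at least 28.2-fold lower (adjusted p = 0.209, edgeR). Its relative Cacng3 had 116 and 80 counts against 6 and 2, a difference of −3.85 ± 1.01 on the log2 scale (adjusted p = 0.262, edgeR). Neither gene passed, and an order with both shBCOR libraries lowest was found for 23.2% of all genes tested. Cacng2 entered the test through its control counts alone. Cacng4 did not show this, with 68.1 and 62.0 CPM in the controls and 24.7 and 62.5 CPM in the shBCOR libraries (−0.57 ± 0.44, adjusted p = 0.783, edgeR).

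Scaffolds of excitatory synapses had 10 genes tested of 18, with 0 passing and a median of −0.45. The sign of this median was not stable: leaving out replicate 1 of the controls gave 0.03 and of shBCOR 0.29, and leaving out replicate 2 gave −1.04 and −1.33 in the same order. It was −0.08 in DESeq2 and −1.31 over the 4 genes with a single record. Their summed level hardly differed, at 1261 and 1289 CPM in control cells and 1166 and 1446 CPM in shBCOR cells. Shank3 and Shank1, scaffolds that link glutamate receptors to the cytoskeleton, differed by −2.44 ± 0.48 and −1.81 ± 0.44 on the log2 scale (adjusted p = 0.131 and 0.211, edgeR). Shank3 levels were 45.2 and 33.4 CPM in the controls and 6.51 and 7.90 CPM in shBCOR cells. Both shBCOR libraries thus lay below both controls, as for 23.2% of all genes tested. Camk2a, a kinase of the postsynaptic density with 3 records, had 58 and 32 counts in control cells but 0 in either shBCOR library. Its pooled bound was 19.2-fold lower (adjusted p = 0.355, edgeR), or 8.2-fold without shBCOR replicate 2. Camk2a entered the test through its control counts alone.

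Scaffolds of inhibitory synapses had 11 genes tested of 13, with 0 passing and a median of −0.21, or 0.01 without shBCOR replicate 2. Map1b, a microtubule protein that binds rho subunits and has many other roles, had 5768 and 5708 CPM in the controls and 7801 and 8002 CPM in the shBCOR libraries, a log2 fold change of 0.46 ± 0.07 (adjusted p = 0.0785, edgeR). Iqsec3, which has 3 records, had 105 and 103 counts in control cells, then 29 and 32 in shBCOR cells (−1.11 ± 0.60, adjusted p = 0.620, edgeR). The groups did not overlap for this gene, and an order with the shBCOR levels lowest was found for 23.2% of all genes tested.

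Chloride transporters set the direction in which GABA and glycine receptors drive a cell, and 0 of the 4 tested of 5 passed, with a median of 0.52, which was −0.57 over the 2 with a single record (Slc12a2 and Clcn2) and 0.18 without shBCOR replicate 2. Slc12a5 (KCC2), which exports chloride from mature neurons, had 35.5 and 36.6 CPM in the controls and 64.8 and 51.5 CPM in the shBCOR libraries, 1.61-fold higher (0.69 ± 0.32, adjusted p = 0.563, edgeR). The importer Slc12a2 (NKCC1) had 171 and 125 against 174 and 201 CPM (0.35 ± 0.21, adjusted p = 0.691, edgeR). The chloride channel Clcn2 had 93 and 55 counts in control cells, then 0 and 38 in shBCOR cells (−1.48 ± 1.45, adjusted p = 0.870, edgeR).

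Metabotropic receptors, which act through G proteins, had 4 genes tested of 10, with 0 passing and a median of −0.77, or −0.26 without shBCOR replicate 2. Grm6, through which ON bipolar cells sense glutamate, had 104 and 84.7 CPM in the controls and 27.1 and 47.4 CPM in shBCOR cells (−1.33 ± 0.34, adjusted p = 0.258, edgeR). Gabbr2, a subunit of the GABA-B receptor, had −0.78 ± 0.43 (adjusted p = 0.630, edgeR). Grm2 had 22 and 21 counts against 14 and 0. Grm6, itself one of the bipolar markers, was thus lower in both shBCOR libraries, as were 23.2% of all genes tested, and lowest in shBCOR replicate 1. The rho genes were lowest there as well, as were the summed amacrine markers, by little, and the summed Müller glia markers. That library had the fewest counts, and the cause was not tested. Among genes of receptor RNA editing and splicing, 2 of 5 were tested and 0 passed. Nova2, a neuronal splicing factor, had 88 and 101 counts in control cells, then 1 and 10 in shBCOR cells (−3.54 ± 1.07, adjusted p = 0.331, edgeR). Adarb2 had 21 and 27 counts and then 0 in both, a pooled bound of 10.2-fold lower (adjusted p = 0.545, edgeR). Its bound was 4.37-fold without shBCOR replicate 2 and 11.7-fold without control replicate 1. Adarb2 entered the test through its control counts alone.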

How the data were processed

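RNA of 4 samples of sorted mouse retinal cells was used, 2 control and 2 shBCOR, with groups taken from sample titles. For shBCOR replicate 2 the number in the deposited table differs from the title, which was used. HTSeq, per the submitters' processing notes, gave the authors' deposited values, raw counts for each RefSeq record. Trimmomatic, TopHat, DESeq2 and the builds mm10 and mm9 are named there as well. The strand setting and the treatment of reads lying in several records are not given in the sources used here. Of 45895 records, 45744 (99.7%) were matched to a symbol through the RefSeq gene table of GRCm38.p6. The remaining records (0.480% of counts) were kept under their own names.

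Counts were summed per gene and tested over the whole table with edgeR 4.0.16 in R 4.3.3 (filterByExpr by group, TMM, robust quasi-likelihood F test, Benjamini-Hochberg adjustment, threshold 0.05). The common biological coefficient of variation was 0.545. DESeq2 1.42.0, other scalings and filters, a fit per record, genes with a single record, equal depth, the replicate block and leaving out each library were alternatives. The fit was tested on simulated data with less spread between libraries than found here, and with changes set only in genes of higher level. That test therefore does not show how the fit performs at the low counts of most receptor genes. Intervals of single counts are exact Poisson intervals at 95% and cover counting error only. The sample records give 3 to 5.1 ng of RNA and 15 PCR cycles, and error from the RNA input and its amplification is not covered. Fold bounds set pooled control counts against 3 counts over both shBCOR libraries and leave out the spread between libraries. All receptor genes are accounted for; of each partner list the genes past the threshold and the 3 with the smallest p are named, except 1 gene that is not reported here. The members, lists and rules were chosen with earlier results of these data known. The check of genes with 30 to 60 counts, the median over genes kept in every fit and the bounds without single libraries were added after the values were seen. The CUT&RUN peak lists were not used here.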

Additional observations from a re-analysis of the deposited data

How the results depend on the processing

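No receptor gene was called under any of the 9 alternatives that kept all 4 libraries, and leaving out single libraries gave 0 to 1 calls, the 1 being Grin2a without shBCOR replicate 1. The count over all genes was 7 and became 393 with DESeq2 (189 higher), 29 with library totals without TMM (3 higher), 205 without a filter on low counts (79 higher), 30 among genes with a single record (10 higher), 14 at equal depth (5 higher) and 4 to 525 on leaving out 1 library (525 without shBCOR replicate 1, 491 without shBCOR replicate 2, 4 without control replicate 1). The cause of these differences was not tested. The replicate numbers did not pair the libraries (correlation of deviations −0.01), and with the replicate block 23 genes were called (5 higher), the median of the receptor genes was −2.04, Grik1 turned to −0.37 and Gabrr1 to −0.00964. Leaving out single libraries, which also changed the genes tested (10 to 15), gave medians of the receptor genes from −3.64 to −0.54. The log2 ratio of summed CPM ran from −0.29 to 0.0659 for all receptor genes, from −2.33 to 0.21 for NMDA, from −0.94 to 0.53 for rho (0.03 without control replicate 1) and from −3.13 to 0 for glycine receptors. Of 140 values of single receptor genes under alternatives, 129 kept their direction and 11 reversed. Without shBCOR replicate 2, Grik1 was −2.09, Grin2a 0.73, Gabra2 0.01, Gabrg3 0.20 and Gabrr1 −0.80. Without control replicate 2, Gabra2 was 2.01 and Gabrg1 0.60. Gabrr3 was 0.23 without shBCOR replicate 1 and 0.00904 at equal depth. The other ends of these ranges were 1.14 for Grik1, −8.53 for Grin2a, −3.64 for Gabra2, −7.93 for Gabrg1, −8.06 for Gabrg3, 0.73 for Gabrr1 and −7.45 for Gabrr3, where the largest falls rest on a single shBCOR library at 0. At such low counts most intervals span several log2 units, so differences of that size were not detectable.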
